A study of Mus musculus with 26 samples.

Results

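Transcripts of 10 cyclic nucleotide phosphodiesterases were followed in mouse brown adipose tissue (BAT). The genes Pde3a, Pde3b, Pde4a, Pde4b, Pde4d, Pde7a, Pde7b, Pde8a, Pde8b and Pde10a were taken from the deposited table of gene counts by their symbols, and they are 10 of the 50686 genes listed there. All 10 passed the filter on low counts and are among the 17286 genes tested. The remaining phosphodiesterase genes of the table, 14 in number, were used for comparison, of which 12 were tested.

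The RNA came from the supraclavicular BAT of adult male C57BL/6J mice, 1 library per mouse. Fat-specific Afadin knock-out (FAKO) mice carry floxed alleles of Mllt4, the gene of the junction protein Afadin that the annotation now lists as Afdn, together with a Cre recombinase driven by the adiponectin promoter, so deletion is aimed at adipocytes and the vessel, immune and nerve cells of the tissue keep the gene. Control mice were littermates, labelled WT. All mice were first kept for 2 weeks at thermoneutrality, given as 30 °C in the sample labels and as a slightly lower temperature in the paper. Of these, 7 control and 7 FAKO mice were collected without cold, and 5 control and 7 FAKO mice were collected following 6 h at 5 °C. BAT is a mixture of cells, so in these bulk samples fewer cells of a type and less RNA per cell cannot be told apart.

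Phosphodiesterases hydrolyse cyclic AMP (cAMP) and cyclic GMP (cGMP) and so end the signals these messengers carry. In brown adipocytes noradrenaline released in the cold acts on beta-adrenergic receptors, adenylyl cyclase makes cAMP, and protein kinase A then turns on lipolysis and the thermogenic genes. PDE3B is the enzyme through which insulin lowers cAMP in adipocytes, PDE3A is its relative best known from heart, platelets and oocytes, and the PDE4 enzymes are specific for cAMP and are the targets of rolipram. PDE7 and PDE8 enzymes also prefer cAMP but are not inhibited by rolipram, and PDE10A, best known from the striatum of the brain, accepts both cAMP and cGMP.

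Promoter windows of 4 members are shown because these genes include the transcript that rose most in the cold (Pde7b), the one that fell most (Pde8a) and a pair of PDE4 genes that rose. Each window runs from 250 bases before to 50 bases after a transcription start in RefSeq (GRCm38.p6, the mm10 build), is written 5′ to 3′ on the strand of the gene, and has 300 bases. Of the 10 members, 7 have at least 1 window in the table used, 17 in all. The windows were searched on both strands for the palindrome TGACGTCA, the full cAMP response element, for its core TGACG, which the full element contains and which reads CGTCA on the other strand, and for AAAGGTCA, which reads TGACCTTT on the other strand and is the element bound by NR4A nuclear receptors. Capitals mark the matches.
Pde7b (chr10:20548279-20548578, minus strand): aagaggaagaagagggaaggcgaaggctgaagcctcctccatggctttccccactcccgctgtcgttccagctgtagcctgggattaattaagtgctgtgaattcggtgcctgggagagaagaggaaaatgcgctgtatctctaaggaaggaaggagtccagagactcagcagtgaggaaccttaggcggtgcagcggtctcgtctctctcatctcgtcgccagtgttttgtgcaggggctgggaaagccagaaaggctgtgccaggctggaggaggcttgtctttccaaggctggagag
Pde8a (chr7:81213015-81213314, plus strand): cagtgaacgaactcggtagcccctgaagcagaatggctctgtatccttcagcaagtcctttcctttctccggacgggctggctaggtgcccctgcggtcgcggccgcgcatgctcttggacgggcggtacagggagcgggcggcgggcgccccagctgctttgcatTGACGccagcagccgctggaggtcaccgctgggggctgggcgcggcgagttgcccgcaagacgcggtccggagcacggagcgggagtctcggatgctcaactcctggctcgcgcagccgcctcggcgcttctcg
Pde4b (chr4:102421305-102421604, plus strand): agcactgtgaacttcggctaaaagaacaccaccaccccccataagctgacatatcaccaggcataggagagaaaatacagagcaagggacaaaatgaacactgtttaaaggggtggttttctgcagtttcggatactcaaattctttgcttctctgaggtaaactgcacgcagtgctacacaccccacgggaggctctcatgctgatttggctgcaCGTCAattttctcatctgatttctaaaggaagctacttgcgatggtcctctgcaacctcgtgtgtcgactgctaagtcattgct
Pde4d (chr13:108653927-108654226, plus strand): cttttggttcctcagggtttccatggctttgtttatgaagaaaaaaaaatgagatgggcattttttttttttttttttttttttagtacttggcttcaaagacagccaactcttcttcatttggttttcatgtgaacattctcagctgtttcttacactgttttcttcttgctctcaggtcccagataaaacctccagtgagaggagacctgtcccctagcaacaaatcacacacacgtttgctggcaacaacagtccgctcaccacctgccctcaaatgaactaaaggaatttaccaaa

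The full element was found in none of the 17 windows and in 1.79% of the 32851 windows of all genes, and the NR4A element was found in none and in 1.51% of all windows. The core TGACG was present in 1 window of each of Pde4a, Pde4b, Pde8a and Pde8b, and in 20.8% of all windows. In Pde8a the match begins 84 bases before the start site, and in Pde4b, whose window was chosen from 4 because it holds the match, 34 bases before it. The windows of Pde7b and Pde4d hold no match to these letters. The counts are summed over whole genes, so they do not say which start site was used. Pde4b, Pde4d, Pde7b and Pde8a have 13, 20, 8 and 3 annotated transcripts. The windows of Pde4b, Pde4d and Pde7b shown lie inside the annotated spans of these genes. The Pde8a window ends at 81213314, before the annotated span of the gene begins at 81213596.

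Levels are given as CPM, counts scaled with TMM factors to a library of 1000000, and changes as log2 fold changes with their standard errors from edgeR's quasi-likelihood test, with p-values adjusted by Benjamini-Hochberg over all genes tested. Because the mice of a group are separate animals, the errors include the variation between animals.

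Total counts ran from 12705969 to 25732258 per mouse. Afdn was not lower at thermoneutrality in the libraries labelled FAKO (median 204 against 200.03 CPM, log2 difference -0.01, SE 0.08, adjusted p = 0.992 from edgeR). In the cold Afdn was at 53.3 to 65.3 in FAKO and 67.9 to 79.2 in control mice, and this difference did not pass the test (log2 -0.33, SE 0.09, adjusted p = 0.116). The genotypes were not checked beyond this and are named here as the labels give them. The brown adipocyte gene Ucp1 was at 551 CPM or more in every library, and Cidea at 933 or more. Skeletal muscle transcripts were present in very unequal amounts, with 8 muscle genes summing to between 29.0 and 7731 CPM. In each of 2 groups 1 library stood apart. Control mouse 7 at thermoneutrality had 14.3% of its counts from mitochondrial genes, against 33.9 to 40.5% in the other 6 mice of its group. FAKO mouse 27 in the cold had 8 inflammatory transcripts that summed to 185 CPM, against 8.90 to 47.3 in the other 6, and these 8 genes were chosen after their values were seen. Mice 7 and 27 also had the lowest mean correlation with their groups (0.960 and 0.961), though mouse 27 was close to the next of its group (0.963).

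After 6 h of cold, control mice had 7 of the 10 transcripts higher and 2 lower at an adjusted p below 0.05. Pde7b and Pde3a rose the most, by 6.59-fold and 4.90-fold, followed by Pde4d, Pde4b, Pde3b, Pde10a and Pde7a. Pde8a and Pde4a fell. Pde8b did not pass the test. Among all genes tested, 31.6% rose and 33.4% fell, so a change in the cold is common in this tissue. In FAKO mice 6 of the 10 rose and 2 fell, against 33.7% and 34.9% of all genes. The transcripts that changed in FAKO mice were those that changed in control mice except Pde10a. Over the 10 members the median log2 change was 0.58 in control and 0.53 in FAKO mice, and over all genes -0.01 and -0.03.

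Groups that did not overlap in CPM are a second way to see the size of these changes. The 5 cold control mice were all above the 7 thermoneutral ones for Pde3a, Pde3b, Pde4b, Pde4d, Pde7b and Pde10a and all below them for Pde8a, so 7 of the 10 members did not overlap, where 46.4% of all genes did not. Among FAKO mice Pde3a, Pde3b, Pde4d, Pde7a and Pde7b lay fully above and Pde8a fully below, which is 6 of the 10, where 40.4% of all genes did not overlap.

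**Figure D1:**
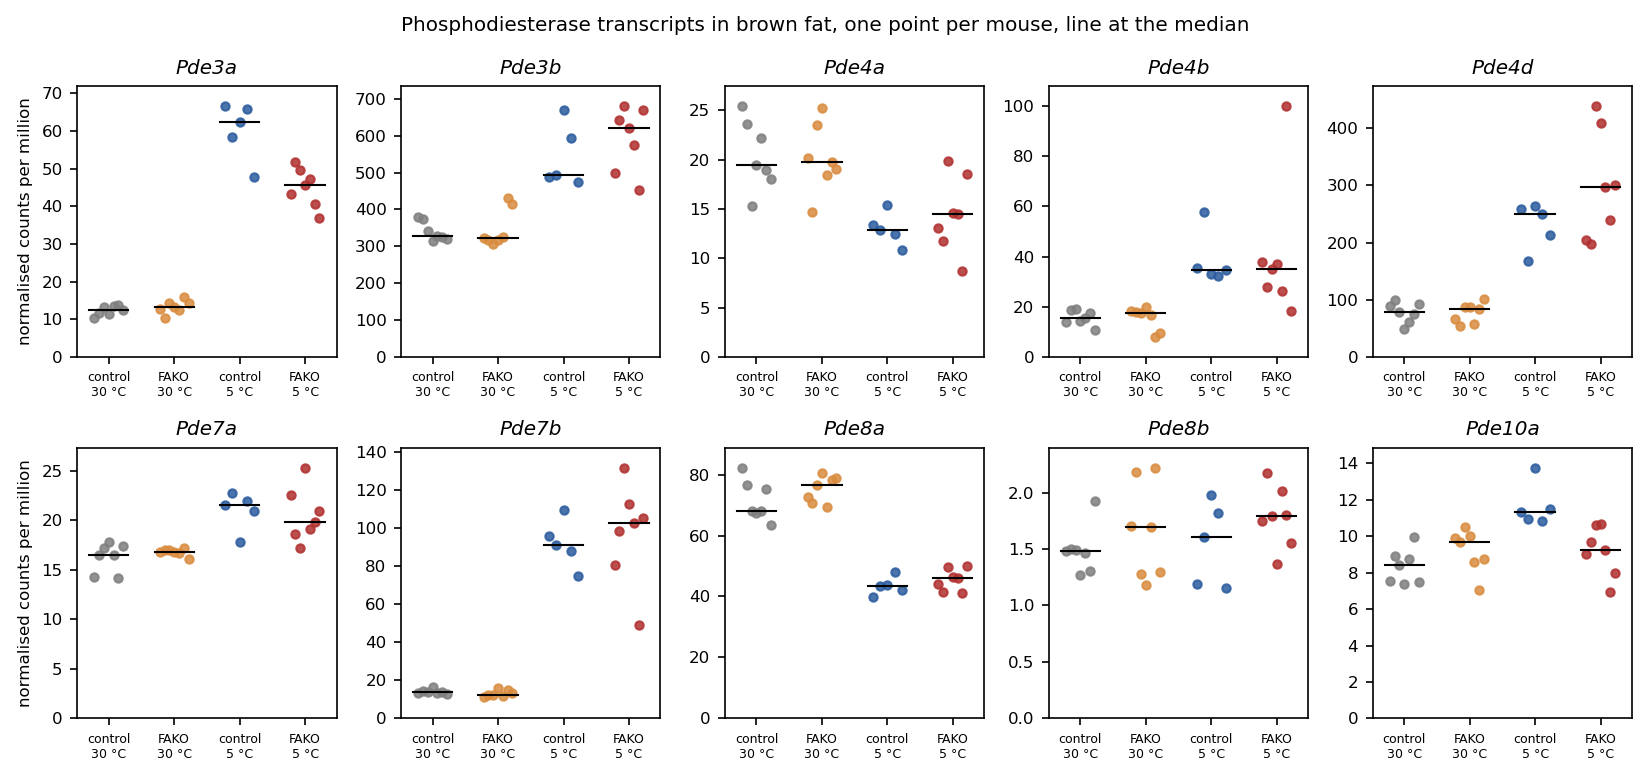
Level of each of the 10 transcripts in CPM (vertical axes, each from 0), with 1 point per mouse and a line at the median, in control and FAKO mice at 30 °C (7 and 7 mice) and after 6 h at 5 °C (5 and 7 mice). Pde7b and Pde3a stand clearly higher in both cold groups, Pde8a lower, and the highest point for Pde4b, at 100.04, is FAKO mouse 27.

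Pde3b, the insulin-activated enzyme of adipocytes, was the most abundant of the 10 and rose in the cold. Its identifier is ENSMUSG00000030671.9, and in mm10 the gene spans chromosome 7 from 114415281 to 114539251. At thermoneutrality the control mice had between 315 and 379 CPM (median 329), and the FAKO mice between 308 and 431 (median 322). The 5 cold control mice had 488, 493, 669, 594 and 473 CPM, and the cold FAKO mice between 454 and 681 (median 620.5). In both genotypes every cold mouse was above every thermoneutral mouse. The rise was 1.60-fold in control mice (log2 0.67, SE 0.11, adjusted p = 4.4e-06) and 1.70-fold in FAKO mice (log2 0.77, SE 0.10, adjusted p = 1.5e-07).

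Pde3a, the second gene of the PDE3 family, rose more steeply from a far lower level. Its identifier is ENSMUSG00000041741.10 and it lies on chromosome 6 from 141249269 to 141507448. Control mice at thermoneutrality had between 10.2 and 13.8 CPM (median 12.4), and FAKO mice between 10.2 and 16.0 (median 13.3). With cold the 5 control mice had 66.6, 58.4, 62.3, 65.8 and 47.6 CPM. Cold FAKO mice had between 36.8 and 51.8 (median 45.6), so all of them were above every thermoneutral mouse and under the median of the cold control mice, and only the 2 highest were above the lowest cold control mouse. The rise was 4.90-fold (95% interval 4.24 to 5.67) in control mice and 3.37-fold (2.94 to 3.86) in FAKO mice, with adjusted p = 3.3e-16 and 9.9e-15. A gene on the opposite strand, Gm28523, overlaps 741 bases of the exons of Pde3a, and the counting is not stated to have used the strand.

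The 3 PDE4 genes did not move together. Pde4d rose, Pde4b rose with a wide spread, and Pde4a fell in both genotypes. Pde4d (ENSMUSG00000021699.17, chromosome 13 from 108449948 to 109953461) is the longest of the genes and is known for its many isoforms that are held at different places in the cell. It had between 48.7 and 99.7 CPM (median 78.4) in control mice at thermoneutrality and between 53.8 and 102 (median 83.9) in FAKO mice. In the cold the control mice had 258, 169, 264, 250.1 and 214 CPM and the FAKO mice between 198 and 439 (median 297). No cold mouse overlapped a thermoneutral mouse. The change was 2.97-fold in control mice (log2 1.57, SE 0.20, adjusted p = 1.1e-07) and 3.88-fold in FAKO mice (log2 1.96, SE 0.19, adjusted p = 7.3e-10). The FAKO mice with the highest values, mice 24 and 25 with 439 and 409.6 CPM, also had the highest sums of muscle transcripts among cold FAKO mice (3889 and 7731 CPM). Among cold control mice the highest value, 264 CPM, was that of mouse 18, which had the lowest muscle sum (31.5 CPM). Mouse 16, with the highest sum of that group (4987 CPM), had 258 CPM. The part of muscle RNA in the values of Pde4d was not tested.

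Pde4b, a PDE4 gene prominent in immune cells, is listed as ENSMUSG00000028525.16 on chromosome 4 from 102087543 to 102607259. It had between 10.6 and 19.2 CPM (median 15.6) in thermoneutral control mice and between 7.85 and 19.9 (median 17.3) in thermoneutral FAKO mice. The cold control mice had 35.5, 57.6, 33.1, 32.4 and 34.7 CPM, all above the thermoneutral range. The cold FAKO mice ran from 18.5 to 100.04 (median 35.1), and the lowest of them, mouse 28, lay within the thermoneutral range. The rise was 2.47-fold in control mice (log2 1.30, SE 0.29, adjusted p = 0.00036) and 2.64-fold in FAKO mice (log2 1.40, SE 0.28, adjusted p = 6.6e-05). Mouse 27, which had the highest inflammatory transcripts, also had the highest Pde4b, and without it the rise in FAKO mice was 0.99 on the log2 scale (adjusted p = 0.00011). The part of immune cells in the value of this mouse was not tested.

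Pde4a (ENSMUSG00000032177.17, chromosome 9 from 21165714 to 21213248) moved the other way. Thermoneutral control mice had between 15.3 and 25.4 CPM (median 19.5), and thermoneutral FAKO mice between 14.7 and 25.2 (median 19.8). The cold control mice had 13.4, 12.8, 15.4, 12.5 and 10.9 CPM, and the cold FAKO mice between 8.66 and 19.8 (median 14.5). The groups overlapped in both genotypes, by 1 cold control mouse that reached the lowest thermoneutral one and more widely in FAKO mice. The fall was to 0.637 of the thermoneutral level in control mice (log2 -0.65, SE 0.16, adjusted p = 0.00092) and to 0.715 in FAKO mice (log2 -0.48, SE 0.15, adjusted p = 0.0045).

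Pde7b showed the largest rise of the 10. The gene (ENSMUSG00000019990.15) lies on chromosome 10 from 20398004 to 20725078 and encodes a cAMP-specific enzyme not blocked by rolipram. At thermoneutrality it was narrow, between 12.6 and 16.4 CPM (median 13.6) in control mice and between 11.3 and 16.0 (median 12.5) in FAKO mice. Cold raised the 5 control mice to 96.0, 91.1, 109.6, 87.8 and 74.9 CPM, and the cold FAKO mice between 49.3 and 132 (median 103). Every cold mouse was far above every thermoneutral mouse, and the lowest cold value, 49.3, was that of mouse 27. The rise was 6.59-fold (95% interval 5.31 to 8.18) in control mice and 7.38-fold (6.00 to 9.08) in FAKO mice, with adjusted p = 2.3e-14 and 2.5e-15.

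Its relative Pde7a (ENSMUSG00000069094.12, chromosome 3 from 19223108 to 19311322) changed little. It had between 14.2 and 17.8 CPM (median 16.5) in thermoneutral control mice, and between 16.1 and 17.1 (median 16.8) in thermoneutral FAKO mice. The cold control mice had 21.5, 22.8, 17.8, 21.9 and 21.0 CPM and the cold FAKO mice between 17.2 and 25.3 (median 19.8). One cold control mouse lay within the thermoneutral range, while the FAKO groups were just apart. The log2 changes of 0.37 (SE 0.08, adjusted p = 0.00027) and 0.29 (SE 0.07, adjusted p = 0.0012) passed the test, but scaled by library size alone they were 0.24 (adjusted p = 0.077) and -0.03 (adjusted p = 0.799). That scaling moves the median of all genes by -0.13 in control mice and by -0.32 in FAKO mice. Exons of Pde7a share 48 bases with an opposite-strand gene, Gm16093.

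Pde8a, a high-affinity cAMP phosphodiesterase, fell by nearly the same amount in both genotypes. The gene (ENSMUSG00000025584.17) lies on chromosome 7 from 81213596 to 81334533. At thermoneutrality it had between 63.6 and 82.3 CPM (median 68.2) in control mice and between 69.2 and 80.4 (median 76.5) in FAKO mice. In the 5 cold control mice it was at 39.8, 43.3, 43.8, 48.0 and 42.2 CPM, and the cold FAKO mice between 41.3 and 50.1 (median 46.0). No cold mouse reached the thermoneutral range. The level fell to 0.606 in control mice (log2 -0.72, SE 0.07, adjusted p = 5.1e-10) and to 0.606 in FAKO mice (log2 -0.72, SE 0.06, adjusted p = 5.6e-11).

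Pde8b (ENSMUSG00000021684.16, chromosome 13 from 95024454 to 95250336) was the least abundant member, with 19 to 46 counts in each library. It had between 1.27 and 1.93 CPM (median 1.48) in thermoneutral control mice, between 1.18 and 2.22 (median 1.69) in thermoneutral FAKO mice, and between 1.37 and 2.18 (median 1.80) in cold FAKO mice. Among cold control mice the values were 1.19, 1.60, 1.97, 1.82 and 1.15 CPM. All 4 groups overlapped. A change was not detectable at this depth, with log2 values of 0.05 (95% interval -0.32 to 0.43, adjusted p = 0.802) in control mice and 0.10 (-0.23 to 0.44, adjusted p = 0.584) in FAKO mice. An opposite-strand gene, Gm48420, overlaps 447 bases of its exons.

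Pde10a rose in control mice, and in FAKO mice no change passed the test. The gene (ENSMUSG00000023868.15) lies on chromosome 17 from 8525372 to 8986648. It had between 7.37 and 9.98 CPM (median 8.42) in thermoneutral control mice and between 7.03 and 10.53 (median 9.69) in thermoneutral FAKO mice. The cold control mice had 11.3, 10.9, 13.8, 10.9 and 11.5 CPM, all above the thermoneutral range. The cold FAKO mice had between 6.92 and 10.7 (median 9.27), within or next to the range at thermoneutrality. The change was 1.40-fold in control mice (log2 0.49, SE 0.11, adjusted p = 0.00034), and -0.01 on the log2 scale (SE 0.10, 95% interval -0.22 to 0.20, adjusted p = 0.946) in FAKO mice. Scaled by library size alone, Pde10a fell in FAKO mice by 0.33 on the log2 scale (adjusted p = 0.0060).

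**Figure D2:**
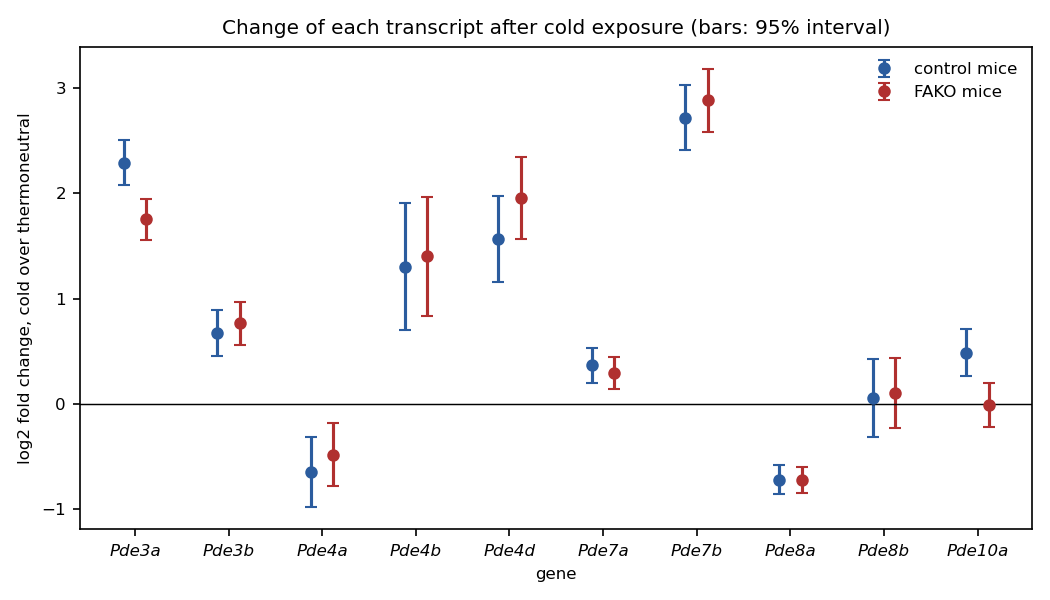
Log2 fold change from 30 °C to 6 h at 5 °C for the 10 transcripts (vertical axis, with the 10 genes along the horizontal axis), in control mice (blue) and FAKO mice (red), with bars for the 95% interval. Pde7b and Pde3a have the largest rises, Pde8a and Pde4a lie below 0, and Pde10a lies above 0 in control mice only, at 0.49 against -0.01.

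Afadin was deleted to ask whether its loss in fat alters the tissue, and between genotypes none of the 10 members passed the test at either temperature. Afdn RNA itself did not differ between the labelled genotypes at thermoneutrality (log2 -0.01, adjusted p = 0.992 by edgeR), so these libraries do not show its loss there. At thermoneutrality the 10 differences (FAKO minus control) ran from -0.08 to 0.14 on the log2 scale, with adjusted p-values from 0.804 to 0.994 by edgeR, none with an unadjusted p under 0.05, and 0 by DESeq2. Of all genes, 14 passed (0.081%). Every 95% interval of a member included 0, and the widest, for Pde4b, ran from -0.60 to 0.54. No member's groups were apart, where 43 of all genes (0.249%) were.

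In the cold, 2 of the 10 members had an unadjusted p under 0.05 and 0 passed after adjustment by edgeR, where 24 of all genes (0.139%) passed. DESeq2 called 1 of them, Pde3a. Pde3a was 0.747 times the control level in FAKO mice (log2 -0.42, SE 0.10, 95% interval -0.62 to -0.22, adjusted p = 0.080). It passed in 2 of 8 other settings, DESeq2 (adjusted p = 0.019) and only genes of at least 10 counts in every mouse (0.049), and the adjusted p reached 0.258 when only the groups compared were fitted. With 1 mouse left out it passed in 1 of 12 fits, that without cold control mouse 21, the lowest of its group (0.043), and the adjusted p reached 0.2001 without cold control mouse 17. Pde10a was 0.783 times the control level (log2 -0.35, SE 0.11, 95% interval -0.58 to -0.13, adjusted p = 0.160). All 7 cold FAKO mice were below all 5 cold control mice for Pde10a, and for no other member were the groups apart, where 192 of all genes (1.11%) had groups that did not overlap.

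Pde4d was 1.29 times as high in cold FAKO as in cold control mice, a log2 difference of 0.37 (SE 0.20, 95% interval -0.04 to 0.78, adjusted p = 0.429). The other 7 members differed by between -0.03 and 0.19 on the log2 scale, none with an unadjusted p under 0.05. For Pde8a the interval was narrow, from -0.07 to 0.21.

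An interaction term compared the cold responses of both genotypes directly. Of the members, 1 of 10 passed, against 200 of all genes (1.16%). The rise of Pde3a was smaller in FAKO than in control mice by 0.54 on the log2 scale (value -0.54, SE 0.14, 95% interval -0.82 to -0.26, adjusted p = 0.04997), a p at the threshold itself. With 1 mouse left out at a time it passed in 4 of 26 fits, those without control mice 7 or 21 or FAKO mice 9 or 23, and in the other 22 the adjusted p ran from 0.051 to 0.093. The difference itself stayed between -0.61 and -0.50 in these fits. Of 7 other settings it passed in 4, with the lowest adjusted p, 0.022, from DESeq2. With RLE size factors the adjusted p was 0.057, without both libraries that stood apart 0.058 and with no filter on low counts 0.103.

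For Pde10a the difference of the responses was -0.50 (SE 0.15, 95% interval -0.80 to -0.19, adjusted p = 0.097), and scaled by library size alone it was -0.70 (adjusted p = 0.020), where the median of all genes moved by -0.20. Without thermoneutral FAKO mouse 13 it was -0.56 (adjusted p = 0.049). For the other 8 members the differences ran from -0.08 to 0.39, and the largest was that of Pde4d (0.39, 95% interval -0.17 to 0.94, adjusted p = 0.506). The nuclear-retained RNAs Neat1, Malat1 and Kcnq1ot1 were also highest in cold control mice. Their summed level ran from 8937 to 10560 CPM in thermoneutral control mice and from 10410 to 11760 in thermoneutral FAKO mice, and from 14820 to 16260 in cold control mice and from 10330 to 13560 in cold FAKO mice. Between genotypes in the cold 1 of the 3 RNAs passed by edgeR, lower in FAKO mice, where 0.139% of all genes passed. In the interaction 2 of the 3 passed, both with a lower value in FAKO mice, where 1.16% of all genes passed. The part of this shift in the values of Pde3a and Pde10a was not tested.

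**Figure D3:**
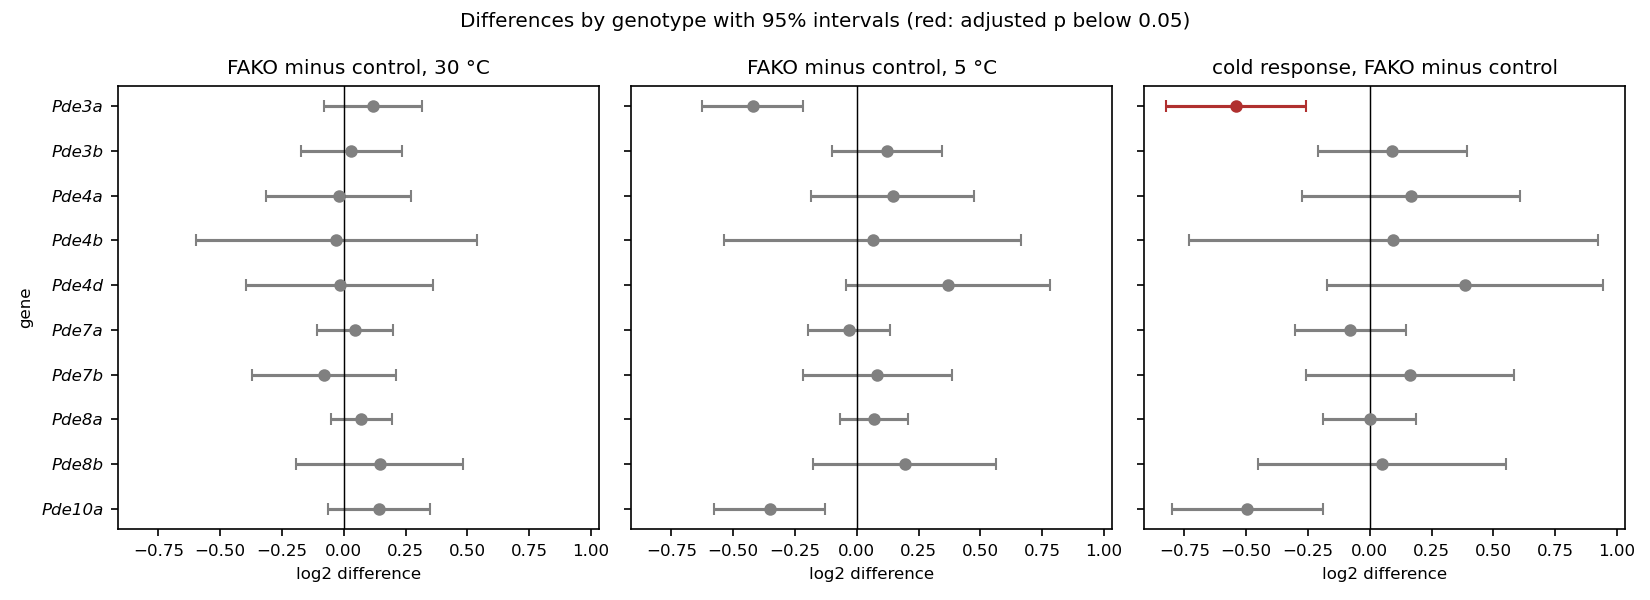
Log2 differences of the 10 transcripts (vertical axis) between FAKO and control mice at 30 °C and at 5 °C and between their cold responses (3 panels, horizontal axis), with bars for the 95% interval and red for an adjusted p below 0.05. The intervals at 30 °C all include 0, and those of Pde3a and Pde10a lie below 0 in both other panels, with Pde3a at -0.42 and -0.54.

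Levels of different genes were compared per length, as CPM divided by the kilobases of all annotated exons of the gene, which is a rough scale because the isoforms in use are unknown. On this scale all 24 phosphodiesterase genes summed to 85.2 ± 6.3 CPM per kb (SD, n = 7) in thermoneutral control mice and 124 ± 13 (n = 5) in cold control mice. FAKO mice had 87.2 ± 7.4 (n = 7) and 136 ± 18 (n = 7). The ranges did not overlap between temperatures, at 78.0 to 98.2 over both genotypes without cold and 112 to 162 with it. The 10 members held 83.0% of the sum at thermoneutrality and 89.2% in the cold in control mice, and 83.1% and 89.6% in FAKO mice. The sum includes Pde6d, whose product does not hydrolyse cyclic nucleotides. Pde6d held 3.7% at thermoneutrality and 1.4% in the cold in control mice, and 3.4% and 1.2% in FAKO mice.

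Pde3b held place 1 in all 4 groups, with 43.8% of the sum in thermoneutral and 47.8% in cold control mice. Pde8a was in place 2 at thermoneutrality with 20.8 ± 1.0% (SD, n = 7), and dropped to 8.69 ± 0.81% (n = 5) and place 3 in the cold. Pde4d moved from 7.56 ± 1.49% to 15.4 ± 2.0% in control mice, and from 7.29 ± 1.31% to 18.0 ± 3.7% in FAKO mice, and took place 2 in both. Pde7b climbed from 1.32% to 5.94% in control mice and from place 9 to place 4. Pde3a went from 1.14 ± 0.17% to 3.81 ± 0.42% in control mice and from 1.20 ± 0.11% to 2.63 ± 0.39% in FAKO mice.

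In the order of thermoneutral control mice, Pde3b (37.4 ± 2.9 CPM per kb) was followed by Pde8a (17.7 ± 1.6), Pde4d (6.48 ± 1.49), Pde4a (2.67 ± 0.46), Pde7a (2.10 ± 0.19), Pde4b (1.48 ± 0.29), Pde7b (1.12 ± 0.10), Pde3a (0.964 ± 0.106), Pde10a (0.650 ± 0.075) and Pde8b (0.254 ± 0.036). The neighbours Pde4a and Pde7a, Pde4b and Pde7b, and Pde7b and Pde3a overlapped in their ranges over mice, and the other neighbours did not. In cold control mice the order was Pde3b (59.7 ± 9.3), Pde4d (19.2 ± 3.3), Pde8a (10.7 ± 0.7), Pde7b (7.38 ± 1.02), Pde3a (4.72 ± 0.61), Pde4b (3.66 ± 1.01), Pde7a (2.71 ± 0.25), Pde4a (1.70 ± 0.21), Pde10a (0.909 ± 0.093) and Pde8b (0.263 ± 0.063). Here Pde3a and Pde4b overlapped, and no other neighbours did.

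**Figure D4:**
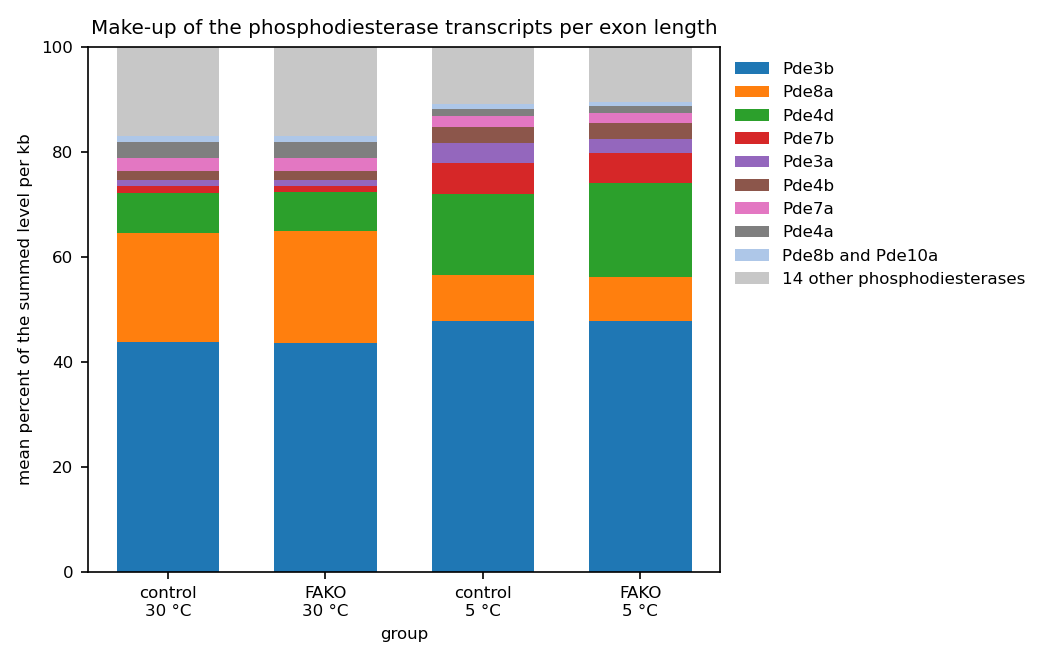
Mean percent of the summed level per kb held by each phosphodiesterase gene (stacked bars, vertical axis from 0 to 100) in the 4 groups along the horizontal axis. Pde3b fills the largest part throughout, Pde8a shrinks from 20.8% to 8.69% in control mice, and Pde4d and Pde7b widen in both cold groups.

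The balance within each pair of related genes was taken in every mouse as the difference of their log2 CPM. It is a description, since the same counts gave the changes above. Pde7a and Pde7b were close to even at thermoneutrality, at 0.22 ± 0.16 (SD, n = 7) in control and 0.36 ± 0.19 (n = 7) in FAKO mice, and in the cold the difference was -2.12 ± 0.30 (n = 5) and -2.20 ± 0.51 (n = 7). Every mouse was above 0 without cold and below 0 with it. Pde4a relative to Pde4d went from -1.90 ± 0.41 to -4.13 ± 0.25 in control mice, and from -1.91 ± 0.26 to -4.35 ± 0.35 in FAKO mice.

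Within the PDE3 pair, Pde3a relative to Pde3b was -4.79 ± 0.24 (SD, n = 7) in thermoneutral control mice and -3.17 ± 0.21 (n = 5) in cold ones. In FAKO mice it was -4.69 ± 0.18 (n = 7) and -3.71 ± 0.24 (n = 7). The cold control mice lay between -3.42 and -2.87 and the cold FAKO mice between -4.18 and -3.48, so the ranges nearly touched. The difference in this ratio was not tested, and no share over other gene pairs stands beside it. Pde3a alone overlapped between these groups, and neither gene passed between genotypes in the cold (adjusted p = 0.080 for Pde3a and 0.663 for Pde3b by edgeR). Pde8a relative to Pde8b went from 5.49 ± 0.26 to 4.74 ± 0.27 in control mice and from 5.45 ± 0.40 to 4.60 ± 0.28 in FAKO mice.

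**Figure D5:**
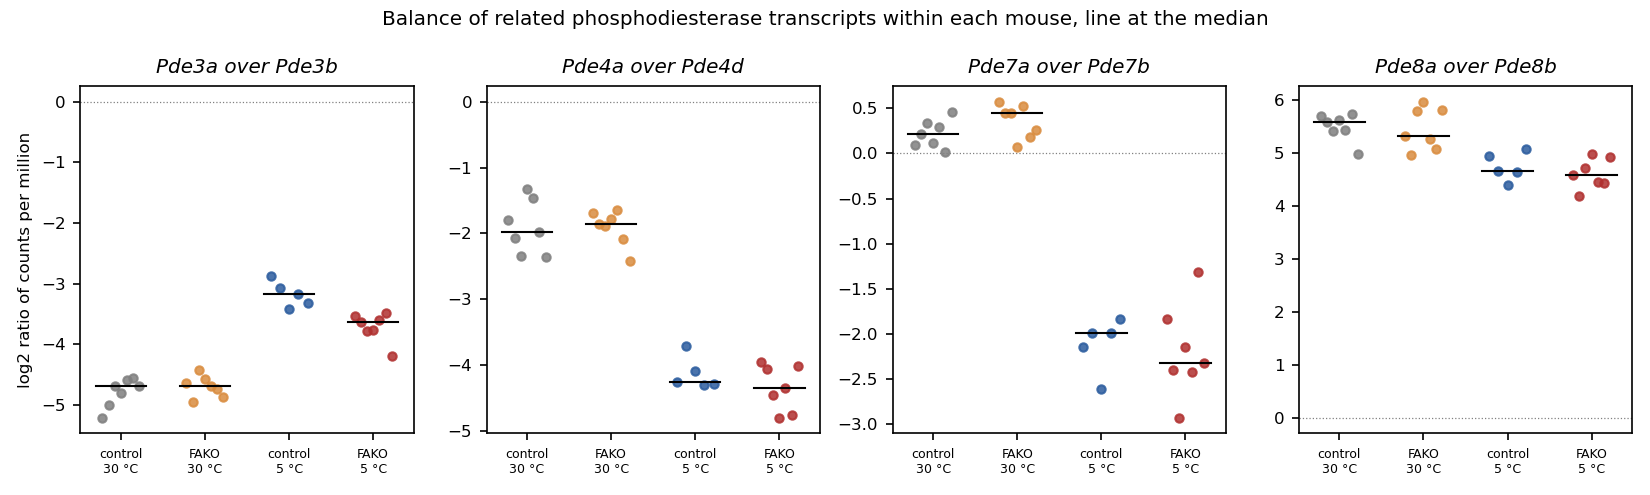
Log2 ratio of the CPM of the first gene over the second (vertical axis) in each mouse for 4 pairs of related genes, in the 4 groups, with a line at the median and a dotted line at 0. The ratio of Pde7a to Pde7b crosses 0 with cold in all mice. That of Pde3a to Pde3b averages -3.71 in cold FAKO mice and -3.17 in cold control mice, a difference that was not tested.

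Of the 12 other phosphodiesterases tested, 4 rose and 4 fell in the cold in control mice, and 5 rose and 4 fell in FAKO mice. Among all genes, 31.6% rose and 33.4% fell in control mice, and 33.7% and 34.9% in FAKO mice. Pde1c, one of the PDE1 genes whose enzymes are activated by calcium and calmodulin, rose by 4.64 on the log2 scale (SE 0.34, adjusted p = 5.8e-12) in control mice and by 3.80 (SE 0.31, adjusted p = 3.1e-11) in FAKO mice, though it stayed at 0.397 CPM per kb in cold control mice. In thermoneutral control mice Pde1c had only 3 to 7 counts per library. Pde4c, the remaining PDE4 gene, rose by 1.01 and 0.56. Pde1b rose by 0.32 and 0.45, and Pde6b, a photoreceptor gene, by 0.66 and 0.53. In control mice the call of Pde1b was marginal (adjusted p = 0.046), and it was lost with DESeq2 (0.063), with no filter (0.082), with 10 counts in every mouse (0.076) and in 9 of 12 fits without 1 mouse. Scaled by library size alone, Pde1b did not pass in either genotype (adjusted p = 0.314 and 0.495), nor did Pde4c (0.182) and Pde6b (0.285) in FAKO mice. Pde1a, at 7.25% of the summed level per kb the most abundant of the others, had a log2 change of 0.05 (adjusted p = 0.663) in control mice and 0.28 (adjusted p = 0.0044) in FAKO mice.

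The genes that fell included those of cGMP-specific enzymes. Pde9a had a log2 change of -1.87 (SE 0.24) in control and -1.99 (SE 0.21) in FAKO mice, and Pde5a, the target of sildenafil, had -1.18 (SE 0.12) and -1.33 (SE 0.11). Pde6g had -1.42 (SE 0.41) and -1.32 (SE 0.34), and its counts per library were only 3 to 6 in cold control and 1 to 11 in cold FAKO mice. Pde6d, which carries prenylated proteins rather than hydrolysing cyclic nucleotides, had -0.84 and -0.90. Pde2a, Pde6a and Pde11a did not pass in either genotype, and the exons of Pde2a overlap those of Gm45837 on the same strand over 3955 bases, so its counts are uncertain. Between genotypes 0 of the 12 passed at either temperature or in the interaction by edgeR, with 1, 2 and 1 at an unadjusted p under 0.05, and 0 passed by DESeq2.

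Genes on either side of the phosphodiesterases in the cAMP and cGMP pathways also changed in both directions, as genes in general did. Of all genes, 31.6% rose and 33.4% fell in control mice, and 33.7% and 34.9% in FAKO mice. Of 14 genes of adenylyl and guanylyl cyclases tested, 3 rose and 6 fell in control mice and 4 rose and 6 fell in FAKO mice. All that rose were adenylyl cyclase genes. The guanylyl cyclase genes Gucy1a1, Gucy1a2, Gucy1b1 and Npr2 fell in both genotypes. The adenylyl cyclase genes that fell were Adcy9 and Adcy5 in control mice and Adcy9 and Adcy6 in FAKO mice. Adcy3 rose by 3.31 on the log2 scale (SE 0.09), Adcy2 by 1.69 (SE 0.53) and Adcy4 by 1.55 (SE 0.10) in control mice, while Adcy9 had -2.02 (SE 0.12), the soluble guanylyl cyclase subunit gene Gucy1a1 -1.43 (SE 0.12) and Adcy5 -0.92 (SE 0.38). Without control mouse 7 the value of Adcy5 was -0.53 (adjusted p = 0.151), and it also missed the threshold without control mouse 5, 17, 18 or 21 (adjusted p = 0.062, 0.057, 0.051 and 0.087). Of 13 genes of cyclic nucleotide effectors, 5 rose and 3 fell in each genotype. Pkig, which encodes an inhibitor of protein kinase A, rose by 1.68, the Epac gene Rapgef4 by 1.25 and the regulatory subunit gene Prkar1a by 1.14. The catalytic subunit genes Prkaca and Prkacb had -0.79 and -0.21, and Prkg1, which encodes cGMP-dependent kinase, -0.49. Prkg1 missed the threshold in 5 fits without 1 control mouse, with adjusted p = 0.050 to 0.061.

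Proteins that hold phosphodiesterases and protein kinase A in place were covered by 15 genes, of which 5 rose and 5 fell in each genotype. That is near the shares of all genes, 31.6% and 33.4% in control mice and 33.7% and 34.9% in FAKO mice. Akap12 rose by 3.17, Akap11 by 1.03 and Akap13 by 0.71 in control mice, and Akap5 had -2.72, Akap7 -1.48 and Arrb1, the gene of beta-arrestin 1, which brings PDE4 to beta-adrenergic receptors, -1.10. Of 14 transcripts known to respond to cAMP, 9 rose and 2 fell in control mice and 10 rose and 2 fell in FAKO mice. Dio2, whose enzyme activates thyroid hormone, rose by 7.00, Ppargc1a, a coactivator of thermogenic genes, by 4.07 and Ucp1, the uncoupling protein, by 4.02, while Rgs2, which dampens receptor signals through G proteins, had -1.87 and Cited2 -0.9998. In all 4 lists 0 genes passed between genotypes at either temperature or in the interaction by edgeR. The numbers with an unadjusted p under 0.05 at thermoneutrality were 1, 2, 0 and 2, in the cold 4, 3, 3 and 0, and for the interaction 4, 1, 3 and 0. DESeq2 called 1 anchor gene in the cold and 1 effector gene in the interaction.

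Marker genes of brown adipocytes and of other cells moved with cold as well, as genes in general did. Of all genes, 31.6% rose and 33.4% fell in control mice, and 33.7% and 34.9% in FAKO mice. Of 10 brown adipocyte markers 3 rose and 4 fell in control mice, and 4 rose and 5 fell in FAKO mice. Ucp1, Plin1 and Fabp4 rose and Adipoq, Lipe, Adrb3 and Prdm16 fell in both genotypes. Of 8 smooth muscle and pericyte markers 4 rose and 4 fell in control mice, and their summed level was 464 to 752 CPM without cold and 498 to 591 with it, against 552 to 713 and 455 to 549 in FAKO mice. Endothelial markers, also 4 up and 4 down, summed to 625 to 847 and 899 to 1027 CPM in control mice and to 711 to 947 and 782 to 1014 in FAKO mice. Of 8 macrophage markers 2 rose and 3 fell in control mice, with sums of 214 to 310 and 226 to 292, while 4 rose and 2 fell in FAKO mice, with sums of 214 to 265 and 242 to 355. Fibroblast and Schwann cell markers each had 0 of 8 higher and 2 of 8 lower in control mice, and in FAKO mice 1 fibroblast marker was higher and 1 lower and 4 Schwann cell markers were lower. No gene of these lists was at 0 in all mice of a group, and the part of these cells in the values of the phosphodiesterases was not tested.

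The genes whose log2 CPM followed Pde7b most closely over all 26 mice were Ei24 (Pearson r 0.992), Slc43a2 (0.989) and Lamp2 (0.989). With the mean of each group taken away, the values were 0.808, 0.698 and 0.579. For Pde8a they were Pdia5 (0.982), Sec14l4 (0.980) and Tmem102 (0.979), and 0.745, 0.696 and 0.738 without the group means. These are descriptions over mice that share 4 groups, picked from all genes tested. Among the members themselves, and without the group means, Pde7b varied with Pde4a (r 0.693) and Pde3b (0.637), Pde4a with Pde8a (0.685), and Pde4b varied against Pde3b (-0.669). Mouse 27, lowest among cold FAKO mice for Pde7b, Pde3b and Pde4a and highest for Pde4b, is part of these values.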

How the data were processed

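RNA was taken from BAT of 26 mice in 4 groups, as the labels give them. Total RNA was depleted of rRNA and made into stranded libraries. Alignment by the authors was to mm10 (STAR 2.5.2b), and the deposited counts per gene are those of featureCounts 1.5.2 on GENCODE M13, without normalization. Whether counting used the strand is not given in the sources used here. A count summed over a gene cannot separate its isoforms.

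Genes were matched by Ensembl identifier to GENCODE M21 for symbols, mm10 positions and exon lengths. The test was edgeR 4.0.16 (legacy quasi-likelihood mode, R 4.3.3, limma 3.58.1) with filterByExpr, TMM factors, 1 term per group and Benjamini-Hochberg adjustment at 0.05 over 17286 genes. Log2 CPM had a prior count of 2, and 95% intervals use the standard error of the fit. No pair among the 73 pairs of mice within groups was as alike as repeat deposits of 1 library would be (chi-square per gene at least 4.92). The fit was tested on simulated counts in which few genes changed and all genes had the same spread. In these data many genes changed with cold, so the simulation cannot tell how the fit behaves here. The members and gene lists were chosen with earlier results of these data known. Apart from the members, the genes named are the other phosphodiesterases and, per list, up to 3 that rose and 3 that fell most among those passing in control mice. Any other gene was chosen after its values were seen. Alternatives were library size alone, RLE factors, DESeq2 1.42.0, no filter, a filter of 10 counts in every mouse, the revised quasi-likelihood mode, only the groups compared, leaving out each mouse, and, chosen after seeing the data, leaving out both libraries that stood apart.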

Additional observations from a re-analysis of the deposited data

Results flagged for a closer look

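In 40 pairs of a member and a group, 4 had 1 mouse farther from the rest than Dixon's 95% critical value allows, where chance gives about 1 in 20. The gaps and ranges were taken on log2 CPM, and the levels are printed as CPM. For Pde4b, cold control mouse 17 (57.6 CPM, others 32.4 to 35.5) had a gap of 0.842 of the range, and cold FAKO mouse 27 (100.04, others 18.5 to 37.8) one of 0.576. For Pde8b, thermoneutral control mouse 7 (1.93 CPM, others 1.27 to 1.498) had a gap of 0.607, and for Pde10a, cold control mouse 18 (13.8 CPM, others 10.9 to 11.5) one of 0.752. The cold response of Pde3a differed between genotypes by -0.54 on the log2 scale in the interaction test (adjusted p = 0.04997, and over 0.05 in 22 of the 26 fits without 1 mouse).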

How the results depend on the processing

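No paired analysis was possible because the groups share no replicate numbers. The counts of members that rose or fell in the cold (7 and 2 in control, 6 and 2 in FAKO mice) stayed within 1.5 times in all alternatives run. Scaled by library size alone, the log2 cold change of Pde8b was -0.088 and -0.22 in control and FAKO mice, that of Pde7a -0.032 in FAKO mice and that of Pde1a -0.070 and -0.047. With that scaling 2 members passed the interaction, 1 other phosphodiesterase rose and 7 fell in FAKO mice, 8 anchors fell, and the per-length sum of thermoneutral FAKO mice was 98.95 CPM per kb. The log2 cold change of Pde10a in FAKO mice was 0.0063 with RLE factors, 0.0078 with DESeq2 and 0.02 without both libraries that stood apart, and between -0.099 and 0.052 without 1 mouse. Without those 2 libraries Pde4b in cold FAKO against control mice was -0.34, and without 1 mouse it ran from -0.35 to 0.25. Without 1 mouse Pde8b in control mice ran from -0.054 to 0.14 and Pde1a from -0.0032 to 0.101. The interaction count of the members was 0 with RLE factors, without a filter and without both libraries, and 0 to 1 without 1 mouse. In the cold, 1 member passed between genotypes by DESeq2 and with 10 counts in every mouse, and 0 to 1 without 1 mouse. With 10 counts in every mouse fewer genes are tested, and 2 other phosphodiesterases rose in control mice, 2 fell there and 2 fell in FAKO mice. DESeq2 called 1 anchor gene between genotypes in the cold, and 1 effector gene in the interaction, as did the stricter filter and the fit without both libraries. Without those, 2 effector genes passed at thermoneutrality, and without 1 mouse 0 to 2 did and 0 to 1 in the interaction. The causes were not tested. Low counts limit Pde8b among the members, and several of the other phosphodiesterases, such as Pde6g and Pde1c.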
